A study of Mus musculus with 24 samples.

Results

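Nitric oxide synthesis and arginine handling were followed here through 9 genes, in mouse endothelial cells sorted from aorta and leg skeletal muscle. The genes are the NO synthases Nos1, Nos2 and Nos3, the cofactor gene Gch1, the dimethylarginine hydrolases Ddah1 and Ddah2, the arginases Arg1 and Arg2, and the cGMP phosphodiesterase Pde5a. Every one of the 9 had a probe, matched by its accession, and together they had 11 of the 41174 non-control probes of the array. Gch1 and Ddah1 had 2 probes each, and for each gene the values are those of the probe with the higher mean signal in that tissue, or over both tissues where these were compared. RNA came from live CD105+/CD45- cells of galectin-3 knockout mice (KO, homozygous for a targeted deletion within Lgals3 in all cells) and of wild-type C57BL/6 mice (WT). The male mice were fed, from 8 weeks of age, a high-fat diet (HFD, 60% of calories from fat) or standard chow (12%) for 8 weeks. Each of the 8 groups of tissue, strain and diet had 3 single-colour arrays, 1 for each of 3 experiments, and each array carried about 10000 sorted cells pooled from 3 to 4 animals, so that 24 arrays were analysed. The aorta and muscle arrays of a strain, diet and experiment shared their animals.

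Nitric oxide is made from arginine by the NO synthases, which need tetrahydrobiopterin as a cofactor. In endothelium, Nos3 makes the NO that relaxes the underlying smooth muscle through soluble guanylate cyclase and cGMP. Methylated arginines inhibit the synthases and are broken down by the Ddah enzymes, arginases draw on the same arginine, and Pde5a breaks down cGMP.

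Gch1 and Ddah2 differed between the tissues in opposite directions, as given below, and both have an entry in the RefSeq promoter table for GRCm38.p6, which held 5 of the 9 genes. The 250 bases before their annotated starts are therefore printed, 5′ to 3′ on the strand of the gene. Capitals mark matches on either strand to GGGCGG, to CCAAT and to TATAAA, with no overlap between motifs.
Gch1, chr14:47189414-47189663, minus strand: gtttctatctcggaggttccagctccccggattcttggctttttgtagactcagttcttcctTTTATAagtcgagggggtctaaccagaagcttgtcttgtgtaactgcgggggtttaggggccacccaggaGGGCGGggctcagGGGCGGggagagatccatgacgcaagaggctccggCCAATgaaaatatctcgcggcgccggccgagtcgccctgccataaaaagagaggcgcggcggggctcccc
Ddah2, chr17:35058785-35059034, plus strand: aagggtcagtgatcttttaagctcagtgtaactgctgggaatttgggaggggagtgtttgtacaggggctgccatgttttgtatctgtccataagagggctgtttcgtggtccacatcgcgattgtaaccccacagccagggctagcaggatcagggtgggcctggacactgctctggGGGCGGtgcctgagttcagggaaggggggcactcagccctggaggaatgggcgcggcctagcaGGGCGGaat
The stretch before Gch1 held GGGCGG 2 times, CCAAT 1 time and TATAAA, read on the other strand, 1 time. The stretch before Ddah2 held GGGCGG 2 times and neither of the other motifs. Of 32851 promoters of this length, 32.7% held GGGCGG, 33.8% held CCAAT and 12.4% held TATAAA.

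The arrays carried endothelial RNA in both tissues, and the endothelial markers read lower in the aorta. All 12 endothelial markers (among them Cdh5, Tie1 and Kdr) were well above background on every array, and their mean log2 level lay between 4.26 and 4.70 on muscle arrays and between 1.94 and 4.01 on aorta arrays. The mean of 6 fibroblast markers lay between 4.13 and 5.80 in the aorta and between −0.47 and 3.45 in the muscle, and that of 10 skeletal muscle fibre markers between −5.55 and −2.01 in the aorta and between −0.15 and 3.02 in the muscle. Fewer endothelial cells and less marker RNA per endothelial cell cannot be told apart on such arrays. Of the 12 pairs of KO and WT arrays, 11 had the higher Lgals3 reading on the one labelled KO. The place of this probe on the transcript, inside or outside the deletion, was not analysed here, so the reading does not check the labels, and KO and WT below are the arrays so labelled. A score from 0 (WT) to 1 (KO) was formed over 35 probes that told the strains apart in the later 2 experiments, and on it the 4 HFD arrays of experiment 1 lay between 0.397 and 0.493. The other arrays labelled WT lay between −0.125 and 0.085 and those labelled KO between 0.903 and 1.08. Most of these belong to the later 2 experiments, whose means set 0 and 1, and lie near those values by construction. The chow arrays of experiment 1 did not shape the score and lay at 0.054 and 0.085 in WT and 0.928 and 0.903 in KO. Counts of members called, Nos3 and Gch1 by diet in the aorta and Gch1 by strain are also given without experiment 1 or its HFD arrays. Other diet and strain values include them.

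Levels are the log2 of a probe's signal over the 75th percentile of its array, so that 0 is the 75th percentile. Different probes bind with different strength, and levels are compared here between arrays for 1 gene, never between genes. Nos3, Gch1, Ddah1 and Ddah2 were well above background on 24 of 24 arrays. Nos2 was so on 12 of 12 muscle arrays and 2 of 12 aorta arrays, Pde5a on 5 aorta arrays and 1 muscle array, Arg1 on 1 muscle array, Arg2 on 1 aorta array, and Nos1 on 0 of 24. By the filter on dim probes (at least 1 group with all 3 arrays well above background), Nos3, Gch1, Ddah1 and Ddah2 were tested in both tissues and Nos2 in the muscle and over both tissues. Nos1, Arg1, Arg2 and Pde5a were not tested. No member had a saturated spot.

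**Figure D1:**
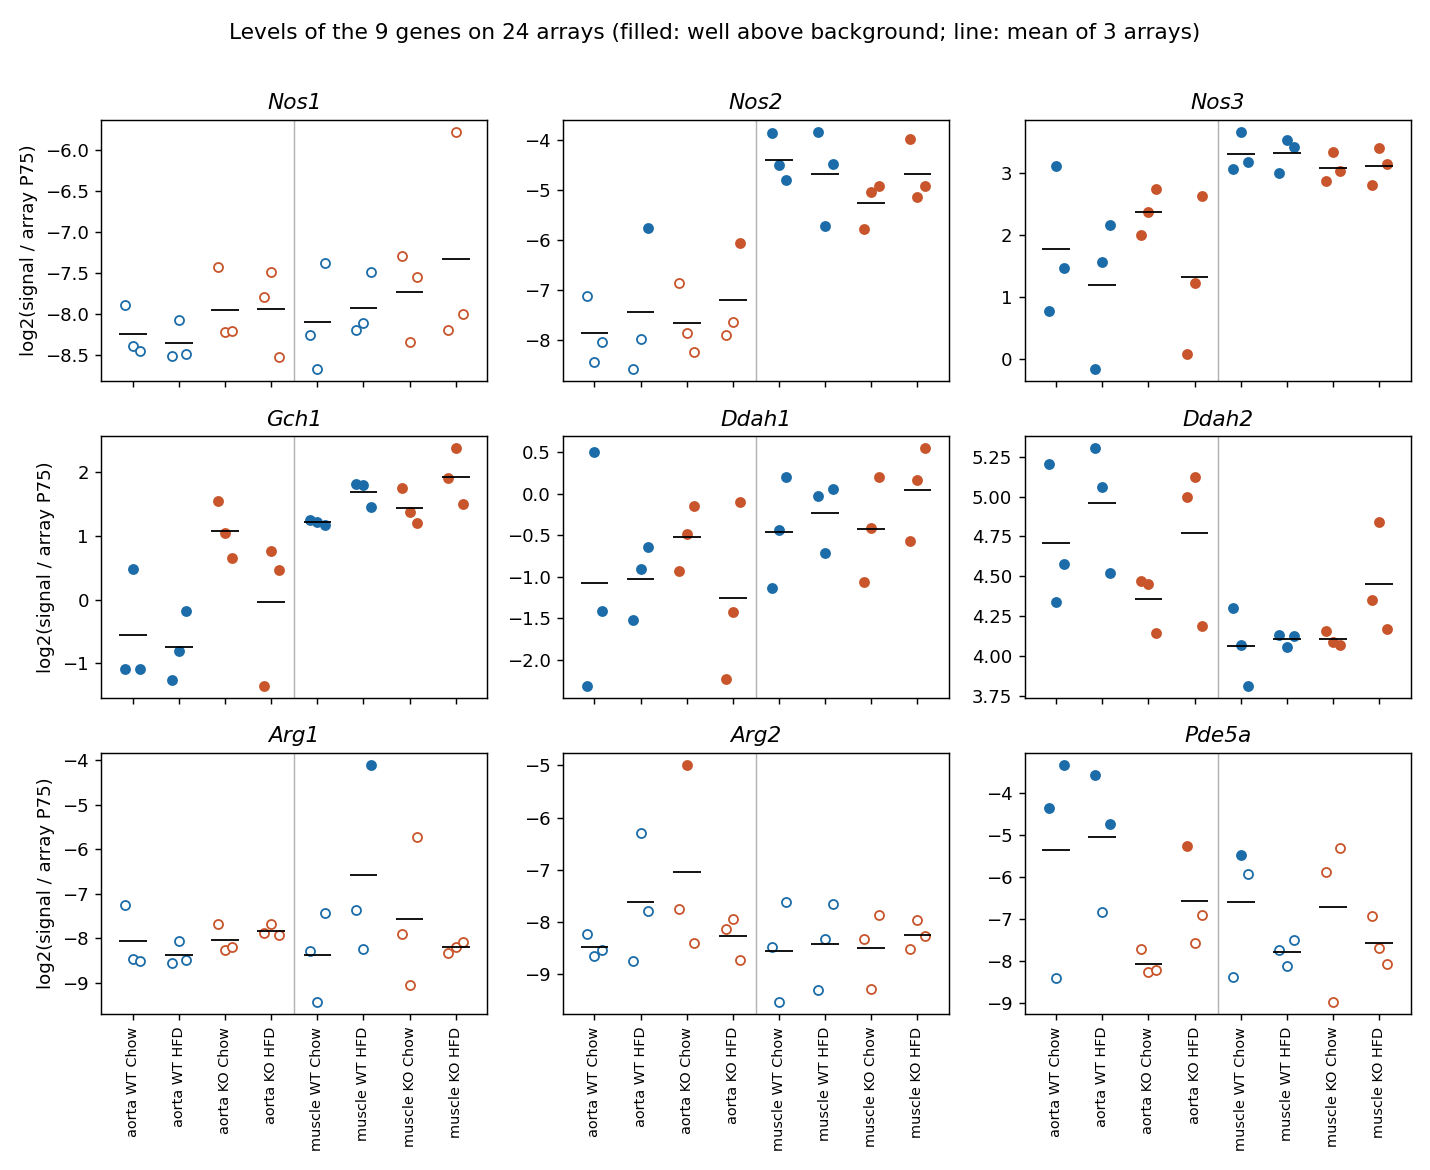
Level of each of the 9 genes, on the brighter probe where it has 2, (y axis, log2 of signal over the array's 75th percentile) in the 8 groups of tissue, strain and diet (x axis). Points are arrays, filled where well above background, blue for WT and orange for KO, and lines are means of 3 arrays. Nos3, Gch1, Ddah1 and Ddah2 are filled on all 24 arrays, Nos2 on all 12 muscle arrays but 2 aorta arrays, and Nos1 on none.

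Nos3, the endothelial NO synthase, was lower in the aorta than in the muscle in all 12 pools of animals, and it varied far more from array to array in the aorta. In the aorta on chow, Nos3 read 0.77, 3.10 and 1.46 in WT and 2.00, 2.37 and 2.73 in KO (experiments 1, 2 and 3). On HFD, the aorta arrays read −0.17, 1.57 and 2.16 in WT and 0.08, 1.23 and 2.63 in KO. The 2 lowest of the 24 arrays were thus the HFD aorta arrays of experiment 1. In the muscle, Nos3 read 3.06, 3.66 and 3.17 in WT chow, 3.00, 3.52 and 3.42 in WT HFD, 2.87, 3.34 and 3.03 in KO chow and 2.80, 3.40 and 3.15 in KO HFD. The muscle groups overlapped one another throughout, and 1 aorta array, WT chow of experiment 2, reached into the muscle range. The mean was 1.66 ± 1.04 (SD, n = 12) in the aorta and 3.20 ± 0.27 (SD, n = 12) in the muscle, a fitted difference of −1.54 ± 0.31 (SE), or 2.91-fold lower in the aorta (limma adjusted p = 0.000477). The Nos3 probe was spotted 10 times on each array, and its spots varied with a median SD of 0.04 within an array.

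The level of Nos3 on an array followed that of the endothelial markers, a list that does not hold Nos3. Nos3 minus the mean of the 12 markers was −1.54 ± 0.49 (SD, n = 12) in the aorta and −1.28 ± 0.21 (SD, n = 12) in the muscle, so that the SD in the aorta fell from 1.04 to 0.49 with the markers taken away. With every array scaled to its endothelial markers, an alternative chosen after seeing the data, the difference between the tissues was −0.25 ± 0.21 (SE, adjusted p = 0.26), and the call was lost. This scaling put the median of all tested probes at 1.01, from −0.27 under the 75th percentile.

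**Figure D2:**
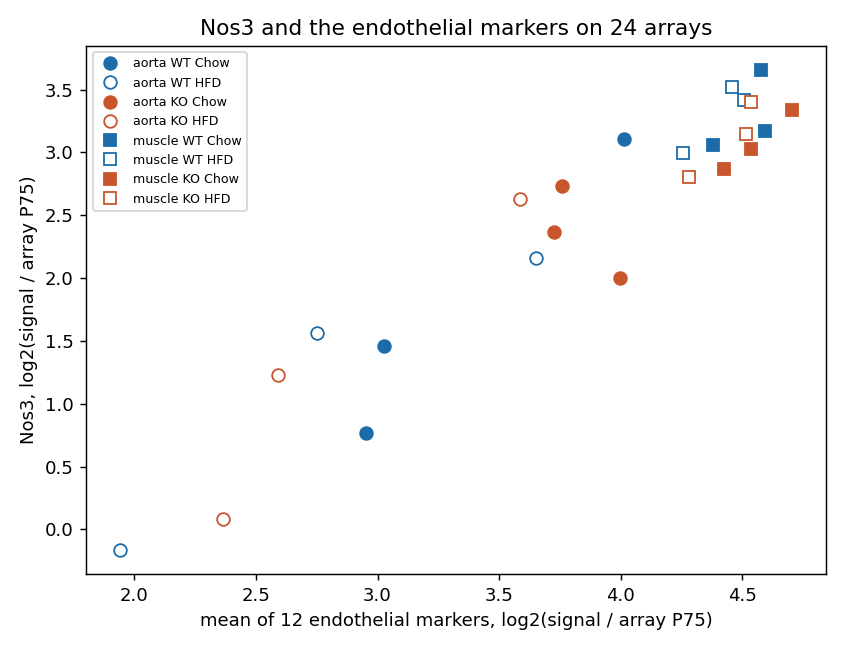
Nos3 level (y axis) against the mean of 12 endothelial markers (x axis), both as log2 of signal over the array's 75th percentile, on the 24 arrays. Circles are aorta and squares muscle, blue WT and orange KO, filled chow and open HFD. The muscle arrays lie together at marker means of 4.26 to 4.70, and the aorta arrays spread from 1.94 to 4.01 with Nos3 from −0.17 to 3.10.

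Nos2, the inducible NO synthase best known from activated macrophages, was read at low levels, clearly in the muscle and hardly in the aorta. In the muscle, Nos2 read −3.87, −4.50 and −4.81 in WT chow, −3.84, −5.72 and −4.49 in WT HFD, −5.79, −5.05 and −4.93 in KO chow and −3.98, −5.14 and −4.92 in KO HFD. The muscle groups overlapped, and WT HFD alone spanned most of the range of the 12 arrays. The 2 aorta arrays well above background were both HFD arrays of experiment 3, at −5.76 in WT and −6.06 in KO, and the other 10 lay between −8.59 and −6.86. On chow no aorta array was well above background, so the difference has only a bound. The muscle was at least 3.58-fold higher than the aorta in WT chow and at least 1.58-fold higher in KO chow. Within these groups 15.5% and 6.31% of all probes were called between the tissues, and no call is counted for Nos2. The bound compares the muscle mean with the lowest signals well above background on the aorta arrays. No p-value between the tissues and no difference over the 4 groups is given for Nos2. Of its 12 aorta readings 10 were not well above background, and it entered the fit through the muscle. On the same arrays the mean of 11 macrophage markers lay between −6.84 and −0.61 in the muscle and between −5.56 and −1.78 in the aorta, with 4 to 11 and 5 to 11 of them well above background. The sort kept CD45- cells, a gate meant to remove leukocytes. Ptprc, the CD45 gene, was well above background on 10 of 12 aorta arrays and 10 of 12 muscle arrays. The part of macrophage transcripts in the Nos2 signal was not tested.

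Nos1, the neuronal synthase, which skeletal muscle fibres also make, was not well above background on any array. Its levels lay between −8.52 and −7.43 in the aorta and between −8.67 and −5.79 in the muscle, where the highest was KO HFD of experiment 2. The median SD of its spots within an array was 0.16.

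Gch1 encodes GTP cyclohydrolase 1, which catalyses the first and rate-limiting step of tetrahydrobiopterin synthesis, and it was lower in the aorta than in the muscle in 12 of 12 pools. In the aorta, Gch1 read −1.08, 0.48 and −1.08 in WT chow and 1.54, 1.05 and 0.65 in KO chow. On HFD it read −1.26, −0.80 and −0.18 in WT aorta and −1.35, 0.76 and 0.46 in KO aorta. The 3 KO chow arrays were thus above all WT aorta arrays, and the HFD array labelled KO in experiment 1 was the lowest of the 12. In the muscle, Gch1 read 1.25, 1.22 and 1.16 in WT chow, 1.81, 1.80 and 1.45 in WT HFD, 1.75, 1.37 and 1.20 in KO chow and 1.90, 2.37 and 1.49 in KO HFD. The WT HFD muscle arrays all lay above the WT chow ones, while the KO diet groups overlapped. The tissues differed by −1.63 ± 0.24 (SE), or 3.11-fold (limma adjusted p = 2.21e-05), and by −1.81 ± 0.29 on the other probe (adjusted p = 6e-05). Scaled to the endothelial markers, the difference was −0.35 ± 0.21 (adjusted p = 0.141) on the brightest probe and −0.53 ± 0.22 (adjusted p = 0.0387) on the other.

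The dimethylarginine hydrolases did not move together between the tissues. Of the members tested, Ddah2 was the one that passed the test as higher in the aorta. It read 5.21, 4.34 and 4.58 in WT chow aorta, 5.30, 5.06 and 4.52 in WT HFD aorta, 4.47, 4.45 and 4.14 in KO chow aorta and 5.0, 5.13 and 4.19 in KO HFD aorta. In the muscle it read 4.30, 4.07 and 3.81 in WT chow, 4.13, 4.05 and 4.12 in WT HFD, 4.16, 4.09 and 4.07 in KO chow and 4.35, 4.84 and 4.17 in KO HFD. The ranges overlapped, but in 12 of 12 pools the aorta array was the higher, by 0.02 to 1.17. The fitted difference was 0.52 ± 0.14 (SE), or 1.43-fold (limma adjusted p = 0.00702). It fell to 0.40 without experiment 1 (adjusted p = 0.146), was 0.54 without experiment 2 (adjusted p = 0.0638) and 0.44 without the HFD arrays of experiment 1 (adjusted p = 0.0588), and the call was lost each time. Scaled to the endothelial markers it was 1.80 ± 0.29 (adjusted p = 2.93e-05), where the median of all tested probes was 1.01. This scaling adds the same constant to the tissue difference of every probe. The place of Ddah2 among the probes is thus unchanged by it, and the smaller p-value adds no support to the call.

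Ddah1 had 2 probes, and the brighter one was not the same in both tissues. Over both tissues, the brighter probe differed by −0.61 ± 0.28 (SE, limma adjusted p = 0.0822) and did not pass the test, whereas the other differed by −1.08 ± 0.39 (adjusted p = 0.0321). The lower value in the aorta held in 9 of 12 pools, with differences from −2.12 to 1.50. Scaled to the endothelial markers, the sign turned, at 0.68 ± 0.22 (adjusted p = 0.00836) on the brighter probe. In the aorta Ddah1 ranged from −2.31 (WT chow of experiment 1) to 0.50 (WT chow of experiment 2), so that 1 group spanned the tissue. In the muscle, on the probe that was brighter there, it ranged from −1.13 to 0.55.

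Of the 4 members well above background on all 24 arrays, 3 passed the threshold between the tissues, Nos3 and Gch1 lower and Ddah2 higher in the aorta. Among the 19431 probes of that kind 48.9% were called (34.5% lower, 14.4% higher), and among all 26753 probes tested 46.3% (30.3% lower, 15.9% higher). Calls were thus frequent among probes at large as well. With the endothelial scaling, Ddah1 and Ddah2 passed as higher and Nos3 and Gch1 did not pass, against 75.4% of all probes, of which 557 were lower and 19627 higher.

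**Figure D3:**
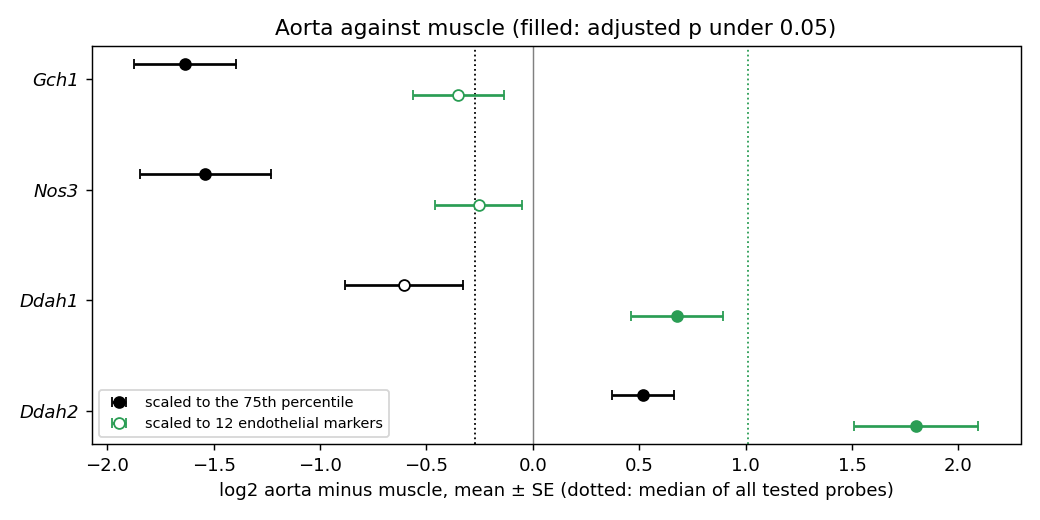
Aorta minus muscle difference over the 4 groups of strain and diet (x axis, log2, mean ± SE of the limma fit of 24 arrays) for the 4 members well above background on all arrays (y axis). Black values are scaled to the 75th percentile and green ones to the endothelial markers, filled points passed an adjusted p of 0.05, and dotted lines are the medians of all tested probes at −0.27 and 1.01. Nos3 and Gch1 move from −1.54 and −1.63 to −0.25 and −0.35, and Ddah1 turns from −0.61 to 0.68.

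The arginases were almost absent from the readings. Arg1, the arginase of liver and of some myeloid cells, was well above background on 1 array, WT HFD muscle of experiment 3, at −4.10. The other 23 arrays lay between −9.43 and −5.73. That array also had the highest mean of 5 neutrophil markers, −1.20 with 4 of them well above background, where the other muscle arrays lay between −8.63 and −4.79. Neutrophils are CD45+ and outside the sort gate, and the part of these transcripts in the Arg1 signal was not tested. Arg2, the mitochondrial arginase of endothelium and other tissues, was well above background on 1 array, KO chow aorta of experiment 2, at −4.99. Its other aorta arrays lay between −8.74 and −6.29 and its muscle arrays between −9.53 and −7.62.

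Pde5a, which breaks down cGMP and is abundant in smooth muscle, was detected on scattered arrays, chiefly of WT aorta. It read −4.37, −8.39 and −3.34 in WT chow aorta and −3.57, −6.83 and −4.73 in WT HFD aorta, where experiments 1 and 3 were well above background and experiment 2 was not. In the KO aorta it read −7.72, −8.26 and −8.20 on chow and −5.25, −7.56 and −6.90 on HFD, with 1 array of 6, again of experiment 1, well above background. The muscle arrays lay between −8.97 and −5.32, and 1 of 12, WT chow of experiment 2, was well above background. The mean of 8 smooth muscle markers was between −0.11 and 1.35 in the aorta and between −0.70 and 1.35 in the muscle. No group had Pde5a well above background on all 3 arrays, so no fold is given.

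High-fat feeding was then compared with chow within each strain and experiment, to ask whether the NO genes responded to the diet and whether the strains differed. In the aorta, Nos3 was lower on HFD in 5 of 6 pairs of arrays. The HFD array differed from its chow partner (log2) by −0.93, −1.54 and 0.70 in WT and −1.92, −1.14 and −0.10 in the KO pairs, and WT of experiment 3 was the exception. For the endothelial marker mean the same differences were −1.01, −1.26 and 0.62 in WT and −1.63, −1.14 and −0.17 in the KO pairs. Over both strains Nos3 changed by −0.82 ± 0.37 (SE, unadjusted p = 0.0615, limma adjusted p = 0.351), and by −0.06 with the endothelial scaling. It was −0.52 without experiment 1 and −1.38 without experiment 3. In the muscle its 6 ratios lay between −0.14 and 0.25, with a mean of 0.03 ± 0.14 (SE). The difference between the tissues in the response of Nos3 was −0.85 ± 0.41 (SE, adjusted p = 0.566).

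Gch1 likewise had lower HFD readings in 5 of 6 aorta pairs, with ratios of −0.17, −1.28 and 0.90 in WT and −2.89, −0.28 and −0.18 in the KO pairs. The mean of −0.65 ± 0.45 (SE, adjusted p = 0.521) ranged from −1.16 to −0.21 with 1 experiment left out, and without experiment 1 the KO mean moved from −1.12 to −0.23 on this probe. The other Gch1 probe gave −0.77 ± 0.31 (SE, unadjusted p = 0.0424, adjusted p = 0.317), with KO ratios of −1.65, −1.05 and −0.97. In the muscle, Gch1 was higher on HFD in 6 of 6 pairs, with ratios of 0.56, 0.58 and 0.29 in WT and 0.15, 1.01 and 0.29 in the KO pairs. The mean of 0.48 ± 0.17 (SE) had an unadjusted p of 0.0266 and an adjusted p of 0.243, and the other Gch1 probe gave −0.04 ± 0.17, higher in 3 of 6 pairs. The response of Gch1 differed between the tissues by −1.13 ± 0.52 (SE, adjusted p = 0.547).

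Ddah1 in the muscle was higher on HFD in 4 of 6 pairs on its brightest probe, by 0.35 ± 0.22 (SE, adjusted p = 0.46), and in 6 of 6 pairs on the other, by 0.58 ± 0.17 (unadjusted p = 0.012, adjusted p = 0.187). In the aorta it was higher in 3 and lower in 3 pairs, by −0.34 ± 0.36 (SE, adjusted p = 0.684), and on the other probe lower in 5 of 6, by −0.79 ± 0.36 (adjusted p = 0.357). Ddah2 was higher on HFD in 5 of 6 aorta pairs, with ratios of 0.10, 0.72 and −0.06 in WT and 0.53, 0.67 and 0.04 in the KO pairs, and a mean of 0.34 ± 0.20 (SE, adjusted p = 0.46). In the muscle its mean was 0.20 ± 0.16 (SE, adjusted p = 0.587). Nos2 in the muscle spread from −1.22 to 1.81 over the 6 pairs, around a mean of 0.15 ± 0.33 (SE, adjusted p = 0.852).

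After adjustment over all probes, 0 members passed the threshold for the diet in either tissue, by limma and, within a strain, by the methods' test on the 3 ratios, with experiment 1 and without it. At an unadjusted p under 0.05, 0 of 4 members passed in the aorta and 1 of 5, Gch1, in the muscle over both strains, on their brightest probes, where 15.1% and 16.4% of all probes passed. After adjustment 0.0626% of all probes were called in the aorta and 0.287% in the muscle over both strains. Within 1 strain, 0.0% were called in WT or KO aorta and WT muscle and 0.00393% in KO muscle. The responses of KO and WT differed in 0 members and in 0.0% of probes in each tissue, and those of aorta and muscle in 0 members and 0.0% of probes. Within 1 strain and for these differences 0 members had an unadjusted p under 0.05, where 5.7% to 12.1% and 2.55% to 9.16% of all probes did. The SE of 0.37 for Nos3 and 0.45 for Gch1 in the aorta leaves changes of the size seen undecided at this number of arrays.

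**Figure D4:**
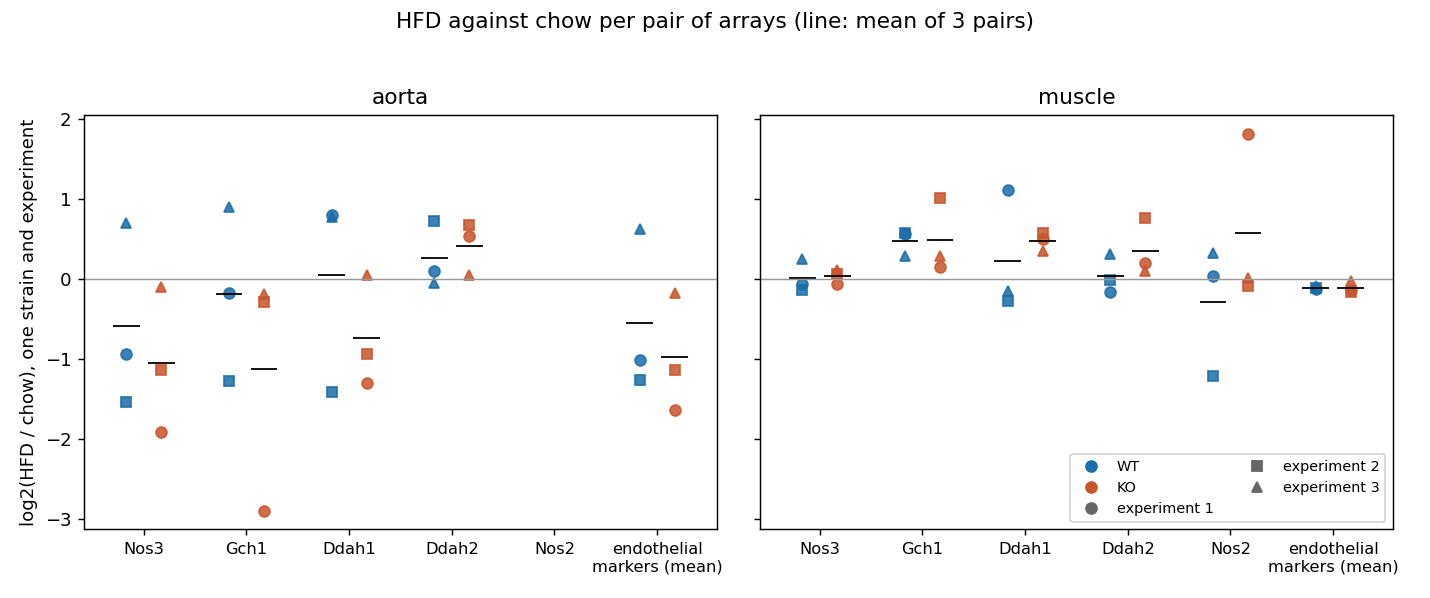
Log2 ratio of HFD to chow (y axis) for each strain and experiment in the aorta and the muscle, for the 5 members tested and the mean of 12 endothelial markers (x axis). Points are pairs of arrays, blue for WT and orange for KO, with a symbol for each experiment, and lines are means of 3 pairs. Nos2 was not tested in the aorta and is left out there. In the aorta Nos3 and the endothelial markers share the 1 pair above 0, WT of experiment 3, and in the muscle all 6 Gch1 ratios lie above 0.

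KO and WT were compared to ask whether the deletion of Lgals3 changed the same genes. In the aorta and over both tissues Gch1 had the largest difference of the members tested, and it did not pass the adjustment. The 3 KO chow aorta arrays, at 0.65 to 1.54, lay above the 3 WT chow ones, at −1.08 to 0.48, a difference of 1.64 ± 0.60 (SE, unadjusted p = 0.0199, limma adjusted p = 0.991). In this comparison 0.0117% of all probes were called. On HFD the difference in the aorta was 0.70 ± 0.60 (adjusted p = 1.0), the groups overlapped, and 0.00391% of probes were called. In 6 of 6 muscle pairs the KO array read higher for Gch1, by 0.23 ± 0.19 (SE, adjusted p = 1.0), and on the other probe 3 of 6 were higher, with a mean of −0.01. In the aorta it was higher in 5 of 6 pairs, by 1.17 ± 0.43 (SE, unadjusted p = 0.0189, adjusted p = 1.0), and on the other probe in 6 of 6, by 0.92 ± 0.47 (unadjusted p = 0.0749). Over both tissues and diets the difference was 0.70 ± 0.24 (SE, unadjusted p = 0.00891, adjusted p = 0.799) on the brightest probe, 0.45 ± 0.29 (adjusted p = 1.0) on the other, and 0.82 ± 0.22 (adjusted p = 0.408) without the HFD arrays of experiment 1. Gch1 lies near the deleted gene, with 7 annotated genes, 4 of them protein coding, between Gch1 and Lgals3 on chromosome 14. Whether this place bears on the Gch1 readings was not tested.

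Nos3 was lower on the array labelled KO in 6 of 6 muscle pairs, with pair differences from −0.32 to −0.12 and a mean of −0.21 ± 0.19 (SE, adjusted p = 1.0). It was higher in 4 of 6 aorta pairs, by 0.36 ± 0.55 (SE, adjusted p = 1.0). These SEs, like those for Gch1 between the strains, are of the fit on group means and do not measure the spread of the pairs. In the muscle the lowest limma adjusted p for Nos3 under any alternative, the slide block among them, was 0.918. Nos2 was lower on the KO array in 5 of 6 muscle pairs, by −0.43 ± 0.35 (SE, adjusted p = 1.0). Ddah1 differed by 0.28 ± 0.28 and Ddah2 by −0.04 ± 0.14 (SE) over both tissues and diets. Pde5a was not tested between the strains, since in the aorta 4 of 6 WT arrays and 1 of 6 KO arrays were well above background. No comparison of the strains called a member (0 of 4 in the aorta, 0 of 5 in the muscle and over both), against 0.0117% of probes in the aorta over both diets, 0.0% in the muscle and 0.127% over both tissues and diets. By unadjusted p under 0.05, Gch1 passed on chow and over both diets in the aorta and over both tissues, where 4.33%, 3.35% and 4.06% of all probes passed. In the muscle over both diets 0 members and 3.29% of probes did.

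The other genes of the pathway, 50 listed by role, were read in the same fits. Between the tissues 44 had a tested probe, of which 19 were lower and 7 higher in the aorta and 18 did not pass, beside 46.3% called among all probes. Among those well above background on all arrays, 19 of 41 were lower and 6 higher, beside 48.9%. Their median difference was −0.32 and that of all probes −0.27. Downstream of NO, both tested subunits of soluble guanylate cyclase, the NO receptor, were lower in the aorta, Gucy1a1 by −1.26 ± 0.33 and Gucy1b1 by −1.13 ± 0.24 (SE). The 2 citrulline recycling enzymes, which return citrulline to arginine, were both lower, with Asl at −0.81 ± 0.18. Among 3 genes of cGMP effectors, 2 were lower, Vasp, a substrate of the cGMP-dependent kinase, at −1.04 ± 0.17 and Mrvi1, a partner of that kinase, at −0.88 ± 0.24. Of 7 other cGMP phosphodiesterases tested, Pde2a was lower by the most at −1.49 ± 0.23, with Pde9a at −1.29 ± 0.20, and Pde1a was higher in the aorta at 1.70 ± 0.26.

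Upstream of NO, the roles split. Of 6 genes of tetrahydrobiopterin synthesis and recycling other than Gch1, 1 was higher and 1 lower, and Pcbd1, a dehydratase of cofactor recycling, had the largest difference of the whole list. Pcbd1 lay between −1.15 and 2.15 in the aorta and between −4.05 and −1.10 in the muscle, higher by 3.53 ± 0.32 (SE, limma adjusted p = 6.81e-08). Of 4 genes of arginine transport, 2 were higher and 2 lower. Slc7a2, a cationic amino acid transporter, was the highest of them at 2.47 ± 0.43, well above background on 12 aorta arrays and 7 muscle arrays. Of 9 partners of the synthases, 3 were lower and 2 higher, with Nosip at −0.77 ± 0.19 and Nostrin, which brings Nos3 to the inside of the cell, at 1.12 ± 0.37. Of 5 arginine methyltransferases, 2 were lower and 1 higher, Prmt3 at 0.85 ± 0.15, whose other probe gave −0.93. The 3 genes of NO removal were all lower, with Cyb5r3, a methemoglobin reductase, at −0.83 ± 0.12 and Hba-a1, a hemoglobin chain whose copy Hba-a2 is nearly identical, at −1.56 ± 0.31. On the same arrays the mean of 4 red cell markers had a median of −2.00 in the aorta and −0.74 in the muscle. The part of red cell RNA in the Hba-a1 signal was not tested. The 3 genes of ornithine use did not pass.

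**Figure D5:**
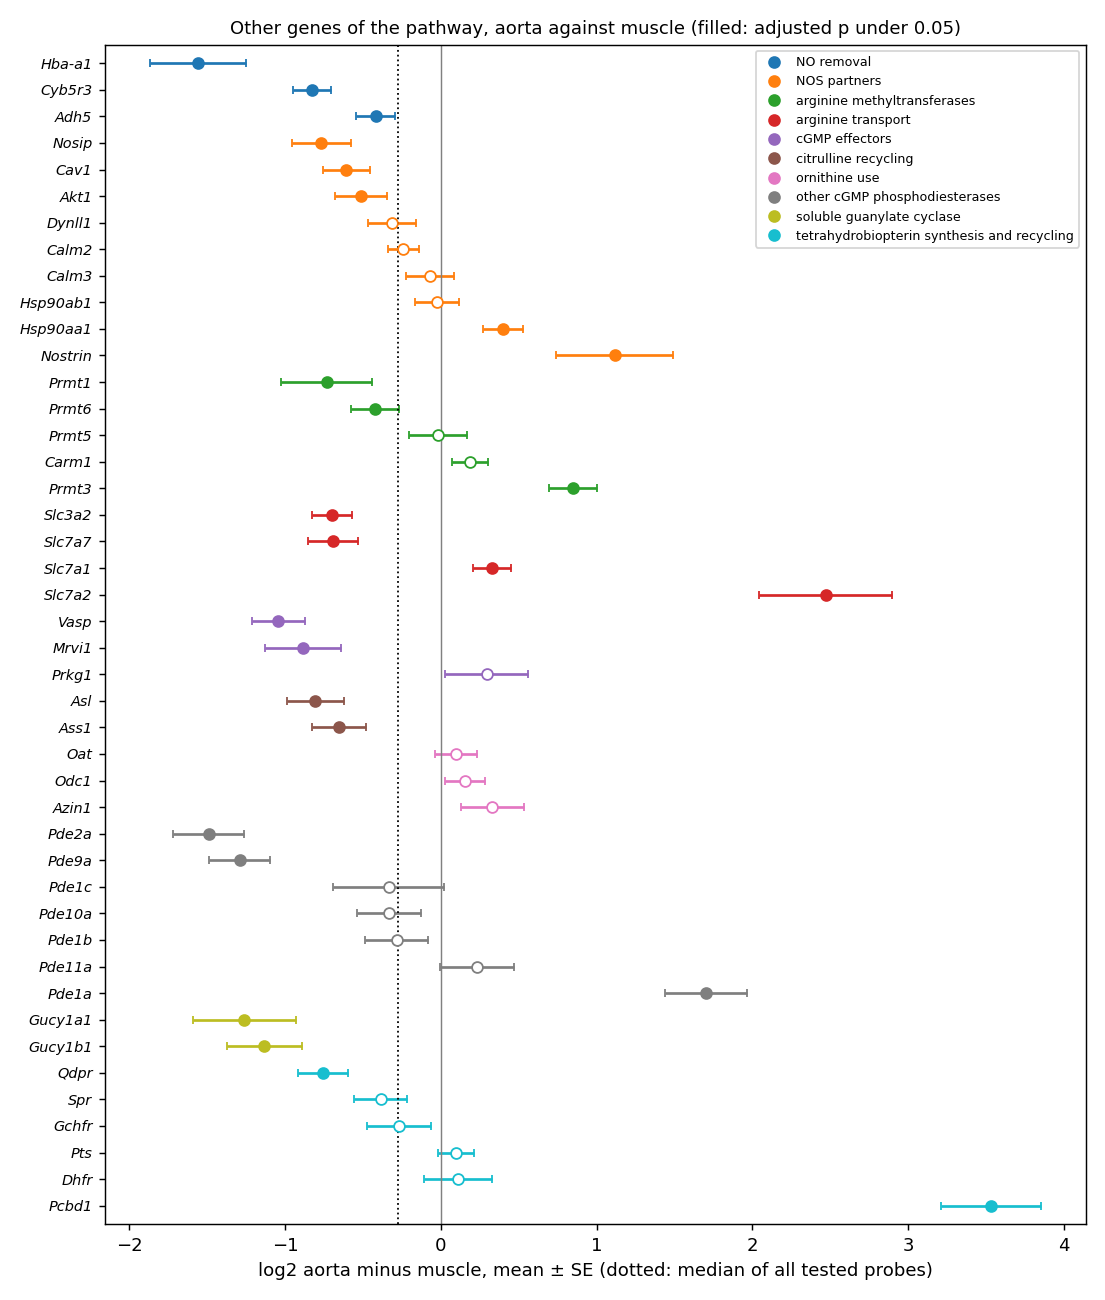
Aorta minus muscle difference (x axis, log2, mean ± SE of the limma fit of 24 arrays) of the 44 other pathway genes with a tested probe (y axis), coloured by role. Filled points passed an adjusted p of 0.05, and the dotted line is the median of all tested probes at −0.27. Pcbd1, Slc7a2, Pde1a and Nostrin lie highest, from 1.12 to 3.53, and Hba-a1 and Pde2a lowest, at −1.56 and −1.49.

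With the endothelial scaling, 33 of the 44 were higher and 0 lower in the aorta, as the median of all probes moved to 1.01. None of the 19 lower calls held under it, as was so for Nos3 and Gch1. Without experiment 1, 17 of the list passed in place of 26, and the share of all probes called without it is not given.

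For the diet, 0 of 46 pathway genes in the aorta and 0 of 42 in the muscle passed over both strains, with 8 and 14 at an unadjusted p under 0.05, where 15.1% and 16.4% of all probes passed. In the aorta 7 of 46 moved the same way in all 6 pairs, as 10.4% of all probes did. The 4 with the largest mean changes were Pcbd1 at 1.60 ± 0.32 (SE, adjusted p = 0.146), Mrvi1 at 0.73 ± 0.25 (adjusted p = 0.267), Pts, the second enzyme of tetrahydrobiopterin synthesis, at −0.68 ± 0.19 (adjusted p = 0.222), and the calmodulin gene Calm3 at 0.63 ± 0.23 (adjusted p = 0.293). In the muscle 14 of 42 moved the same way, 10 of them lower on HFD, where 11.4% of all probes moved the same way and 5.73% were lower. The 4 with the largest mean changes were Gucy1a1 at −1.39 ± 0.27 (adjusted p = 0.105), the cGMP-dependent kinase gene Prkg1 at −1.07 ± 0.37 (adjusted p = 0.233), Ass1, the first citrulline recycling enzyme, at −0.80 ± 0.18 (adjusted p = 0.131), and Mrvi1 at −0.76 ± 0.17 (adjusted p = 0.127). Mrvi1 thus had mean changes of opposite sign in the tissues, and neither passed the test. Markers of other cells differed by diet on the same arrays. In the muscle the median change was −0.47 for pericyte markers (5 of 7 at an unadjusted p under 0.05), 1.02 for fibroblast markers (4 of 6) and 1.49 for macrophage markers (3 of 8), and 0 of these passed after adjustment. In the aorta it was −3.94 for adipocyte markers, of which 2 of 6 passed after adjustment, and 0.70 for fibroblast markers. The part of these cells in the pathway changes was not tested. For the strains, 0 pathway genes passed in any comparison, beside at most 0.127% of all probes. Tested were 46 in the aorta, 42 in the muscle and 44 over both tissues. At most 2 had an unadjusted p under 0.05, where 1.12% to 4.33% of all probes did.

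The genes most like each member over the 24 arrays were found by Pearson's r after the mean of each tissue was taken away, among 20279 probes with a gene name. The arrays share slides and animals, and r is given as a description. Nos3 was followed most closely by Lhx6 (r = 0.932), Ushbp1 (0.932) and Gimap5 (0.924). Gch1 was followed by Ppm1f (0.905), Acss1 (0.905) and B4galt4 (0.893). Ddah1 was followed by Hdc (0.881), Calcrl (0.87) and Slc52a3 (0.848). Ddah2 was followed by Phpt1 (0.941), Erg28 (0.925) and Fat1 (0.922), and Nos2, with 10 of its 24 readings not well above background, by Tln1 (0.735), Fscn1 (0.728) and Trp53i11 (0.721).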

How the data were processed

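RNA of sorted endothelial cells was amplified, labelled with Cy3 and read on 24 single-colour Agilent arrays. Per the file headers, the processed intensities were made by Agilent Feature Extraction 10.5.1.1 (the submitters' processing notes name 9.1), which subtracts the background and does not scale arrays to each other. Median spot and local background intensities are in the deposited files as well. A further table deposited by the authors holds log2 values that differ from the logged processed intensities by a shift for the whole array, which is not the same in both tissues, and it served as an alternative alone.

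Here each intensity was divided by the 75th percentile of the array's 43379 non-control spots (2390 to 5938 over arrays) and put on the log2 scale, outlier spots were left out, and spots of a probe averaged. Between 59.5% and 75.7% of spots per array were well above background. A probe was well above background when at least 0.5 of its spots were, and was tested when this held on every array of at least 1 group and no array was missing. This left 25543 probes in aorta, 25456 in muscle and 26753 over both. Probes were named by accession through the RefSeq gene table for GRCm38.p6 (27479 probes, 18747 symbols). Amplification from few cells can widen the spread of low readings, and the number of arrays limits the precision.

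limma 3.58.1 (R 4.3.3) fitted HFD against chow with a block for each strain and experiment per tissue, KO against WT on group means, and aorta against muscle on 8 group means, with Benjamini-Hochberg adjustment over all probes tested and a threshold of 0.05. The replicate number is the experiment: deviations of aorta and muscle arrays of 1 pool of animals correlated at 0.136 to 0.542 over 12 pairs, those of KO and WT of 1 slide at 0.124 to 0.773 and those of HFD and chow at 0.015 to 0.558. Each of 6 slides held the 4 groups of 1 tissue and experiment, so slide and tissue cannot be told apart within an experiment. Scripts were tested on simulated data (Python 3.11.15, pandas 2.3.3).

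The members, lists and tests were chosen with earlier results of these data known. Named pathway genes were those past the threshold, at most 15 per contrast with the largest changes, and for the diet the 4 with the largest mean change among those alike in all 6 pairs. Of the 50 listed, 47 had a probe. Alternatives were normexp background (offset 50), quantile normalization, the deposited table, no filter or a stricter filter on dim probes, the mean of all probes, each experiment left out, other blocks and the methods' test on the 3 ratios. The endothelial scaling, the comparison without the HFD arrays of experiment 1 and the contrasts of tissues within a group were added after seeing the data.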

Additional observations from a re-analysis of the deposited data

How the results depend on the processing

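Over the 17 comparisons, the number of members called stayed at 0 for diet, strain and their interactions under every alternative run. Between the tissues, the main settings called 3 of the 4 members well above background on all arrays, Nos3, Gch1 and Ddah2. Nos2 entered the fit through the muscle and is not counted. Ddah1 turned from −0.61 to 0.68 between the tissues when arrays were scaled to the endothelial markers, as the median of all probes moved from −0.27 to 1.01. Ddah1 passed the test at −0.84 with the mean of its probes. Nos3 and Gch1 lost the call under that scaling alone. Ddah2 lost it without replicate 1, without replicate 2 and without the HFD arrays of experiment 1, and with the slide as a random block its adjusted p was 0.0482. Pde5a passed the filter on dim probes without replicate 2, through the WT aorta arrays alone, and no value is given for it. Before adjustment the methods' test on the 3 ratios passed, on the brightest probes, Ddah1 in KO muscle and Gch1 in WT muscle. The other Gch1 probe also passed in KO aorta, with a mean ratio of −1.22 ± 0.37 (SD, n = 3). The share of all probes that passed this test before adjustment is not given, so no result is read from these. The cause of these changes was otherwise not tested.

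Of the pathway list, between 17 and 20 genes were called between the tissues with 1 replicate left out, where 26 were called with all. For the diet over both strains, 1 pathway gene was called in the aorta with the endothelial scaling (Pcbd1, 2.36, adjusted p = 0.0251). In the muscle 1 was called with normexp background (Gucy1a1, −1.30, adjusted p = 0.0484), 1 when probes had to be well above background on all arrays (Gucy1a1, −1.39, adjusted p = 0.045) and 1 with the slide as the block (Pde9a, −0.69, adjusted p = 0.0484). With the pool of mice as a replicate block, 30 pathway genes were called between the tissues. With the slide as a random block, 15 pathway genes were called lower and 4 higher in the aorta, in place of 19 and 7. The share of all probes called with either block, or with a replicate left out, is not given. No result about the genes is read from these counts. Each slide held arrays of 1 tissue alone, and the main fit of the tissues has no slide term. The replicate block of the slide called 0 members between the strains, and dropping the replicate block for the diet called 0. The deposited table, scaled apart for each tissue, gave 5927 probes higher and 4129 lower in the aorta, in place of 4267 and 8112, and kept the direction of all 5 members tested.

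The limits are those of signal over background: 4 of 9 members could not be tested, and 3 arrays a group left SEs of 0.37 to 0.45 for the diet response of Nos3 and Gch1 in the aorta.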
